A study of Homo sapiens with 6 samples.

Results

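The genes described here encode complement components and the proteases that cleave them, namely C3, CFB, CFD, C1S, C1R, C1RL, C2, C5, C4A and C4B. The members were listed by name and function, at a time when results of these data were known. Of the 10 listed genes, 8 were found among the 37890 genes of the table, and 7 of these were among the 14678 genes that passed the filter of a mean normalised count of at least 10. C1R and C1RL were not analysed here.

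ARPE-19 is a long-used human line that came from the retinal pigment epithelium (RPE), the cell layer that supports the photoreceptors. The WT group is the ARPE19 line itself, and the POLDIP2 KO group, labelled with the genotype POLDIP knockout, is the same line after lentiviral delivery of SpCas9 with an sgRNA that targets POLDIP2, followed by puromycin selection and expansion. All 6 libraries, 3 biological replicates of each line, carry the treatment label "Regular maintenance" and were taken at Day 3. The methods describe POLDIP2 KO as a selected and expanded line and not as a single clone, and they describe no WT line that received Cas9 or puromycin, so the effects of the knockout and of transduction and selection cannot be told apart.

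Complement is a cascade of plasma and tissue proteins that marks targets for removal and drives inflammation. In the classical pathway, C1q binds a target, C1r activates C1s, and C1s cuts C4 and C2 to build a convertase. The alternative pathway builds its own convertase from C3 and factor B with the help of factor D. Both convertases cut C3 and then C5, which opens the terminal pathway. The liver makes most plasma complement, but RPE cells also transcribe several components, and complement is a major topic in studies of age-related macular degeneration.

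The values are normalised counts, which are estimated read counts divided by a size factor for each library. The depth was 31532797 to 45795509 recovered reads per library. The study estimated transcript abundances with Salmon, so the reads given here for a gene are estimates and not reads observed for that gene alone. Values listed for a line stand in the order of replicates 1, 2 and 3. For POLDIP2, the targeted gene, the WT libraries held 3919, 4827 and 4798 and the POLDIP2 KO libraries 1063, 1248 and 1143, so each library followed its label. Of the 10 RPE markers examined, RPE65 was at 0 in every library and TYR had 0 to 3 reads, while KRT8 ranged from 34222 to 48481. SERPINF1 was lower in POLDIP2 KO without overlap, at 103, 168 and 108 in WT against 101, 74.1 and 49.6. Its limma adjusted p value was 0.822. BEST1, RLBP1, MITF, PMEL, RDH5, KRT8 and KRT18 overlapped between the lines, and BEST1 varied from 61.4 to 562 within WT. The summed level of 8 macrophage markers was 1763 to 2256 in WT and 1886 to 2186 in POLDIP2 KO, most of it CD68. AIF1 and TYROBP were at 0 in all libraries. CSF1R was lower in POLDIP2 KO without overlap, at 48.2, 24.1 and 15.7 in WT against 4.92, 14.7 and 11.9. Its limma adjusted p value was 0.819. LYZ overlapped, with 18.8 to 29.1 in WT and 13.5 to 23.8 in POLDIP2 KO, and FCER1G was at 6.15 to 13.025 over both lines. CD14 had 0 to 3.01 in WT and 2.98 to 6.51 in POLDIP2 KO, and PTPRC had 0 reads in WT and 1, 4 and 7 reads in POLDIP2 KO. The summed level of 6 hepatocyte markers was 0.945 to 10.03 in WT and 4.96 to 7.38 in POLDIP2 KO. For 5 endothelial markers the sum was 25.1 to 47.2 in WT and 27.8 to 62.7 in POLDIP2 KO. The summed level of 6 fibroblast markers was 2132 to 6799 in WT and 2081 to 14179 in POLDIP2 KO, with POLDIP2 KO replicate 1 the highest. Among them, COL1A1 had 2147, 320 and 677 in WT against 6956, 760 and 1953 in POLDIP2 KO, which was 3.24, 2.37 and 2.89 times as high within the pairs. Its limma adjusted p value was 0.980, and 0.0436 once the replicate block was added, with a log2 fold change of 1.49. The other fibroblast markers did not share this. PDGFRA was lower in each pair, at 0.822, 0.811 and 0.951 times the WT value. PDGFRB was 1.42, 0.727 and 1.30 times as high, and COL1A2, DCN and LUM were higher in only some of the pairs. The part of these markers in the values of the complement genes was not tested.

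The highest WT value lay below the lowest POLDIP2 KO value for C3, CFB and C1S. The difference was largest for C3, at 4.46-fold on the fitted scale, followed by CFB at 2.90-fold and C1S at 1.98-fold. In bulk RNA, more cells that transcribe a gene and more RNA per cell cannot be told apart. The libraries of both lines overlapped for C5, CFD, C4A and C4B, and C2 was close to the floor. Calls needed a limma adjusted p value under 0.05 together with a change of over 1.5-fold, and 0 of the 7 tested members were called, against 0.17% of all tested genes. C3 came closest, with an adjusted p value of 0.0506.

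**Figure D1:**
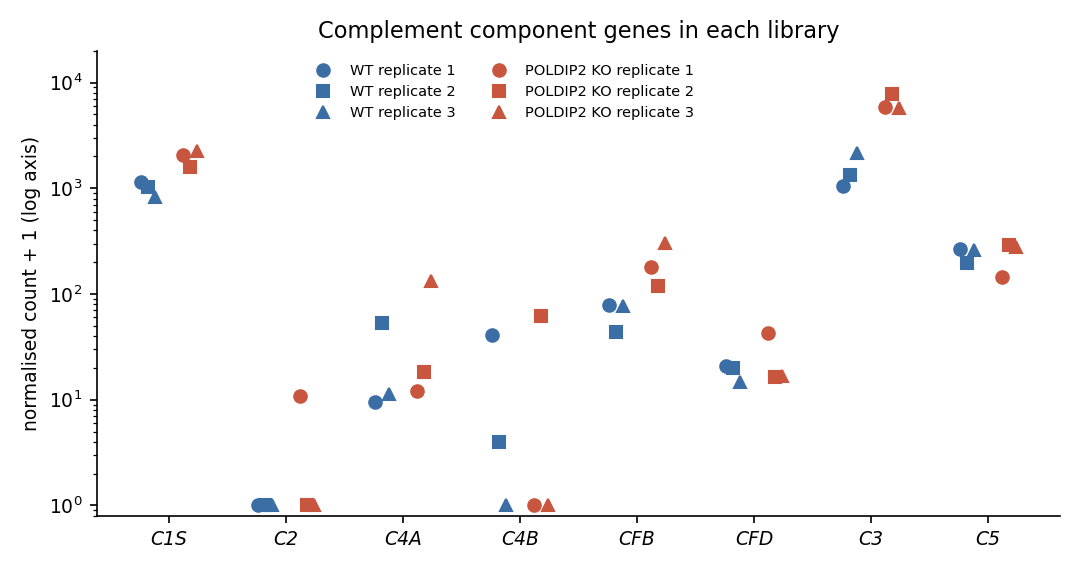
Normalised count plus 1 (vertical log axis) of the 8 complement component genes in the table, with 3 WT libraries in blue and 3 POLDIP2 KO libraries in red, and the marker shape giving the replicate number. C1S, CFB and C3 are separated between the lines, C5, CFD, C4A and C4B overlap, and C2 was above 0 in POLDIP2 KO replicate 1 only.

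For 3 of the 7 tested members the POLDIP2 KO libraries all lay above the WT libraries, compared with 5.47% of all tested genes. The same 3 members were higher in POLDIP2 KO in each of the 3 pairs of libraries with the same replicate number, compared with 17% of all tested genes. They were also the 3 members with an unadjusted limma p value under 0.05, each higher in POLDIP2 KO, against 3% of all tested genes. C3, CFB and C1S are genes that the study named as upregulated on these same libraries, so their count is not independent evidence of a direction. The median log2 fold change was 0.78 over the 7 members and -0.00029 over all tested genes. The member median is the value of C4A, and it ranged from 0.45 (without WT replicate 3) to 1.14 (without POLDIP2 KO replicate 2, over the 6 members then tested) when 1 library was left out.

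Of the classical proteases, C1S encodes the protease C1s of the C1 complex (chromosome 12 of GRCh38, 6988259 to 7071032, plus strand). For C1S, the WT libraries held 1139, 1020 and 821 normalised counts and the POLDIP2 KO libraries 2045, 1594 and 2270. The lowest POLDIP2 KO library was therefore above the highest WT library. The mean was 993 ± 161 in WT and 1969 ± 344 in POLDIP2 KO (SD, n = 3 libraries each). On the log2 scale the fold change was 0.98, with a 95% confidence interval of 0.56 to 1.41 and an adjusted p value by limma of 0.160. Within pairs, POLDIP2 KO was 1.79, 1.56 and 2.77 times as high as WT for replicates 1, 2 and 3. A transcribed neighbour, LPCAT3, overlaps C1S on the opposite strand, and its log2 fold change was 0.02. The 3 nearest tested genes on each side of C1S (PHB2, EMG1, LPCAT3, SLC2A3, FOXJ2 and C3AR1) had log2 fold changes from -0.44 to 0.65 and overlapping libraries. On the side after C1S, the first of them, SLC2A3, starts only at position 7919230. C1R and C1RL lie between C1S and SLC2A3 and were not analysed, so the genes next to C1S on that side were not covered.

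C2 encodes the protease that joins C4b in the classical convertase (chromosome 6, 31897785 to 31945673, plus strand). C2 had 0 recovered reads in WT replicates 1, 2 and 3 and in POLDIP2 KO replicates 2 and 3, and 8 reads in POLDIP2 KO replicate 1. A count of 0 allows up to 3 reads, which is 2.44 to 3.69 normalised counts depending on the library and covers counting error only. The mean of POLDIP2 KO, 3.28 normalised counts, lay within this range, so no fold change is given. The fibroblast marker COL1A2 was also high in POLDIP2 KO replicate 1 alone, at 614 normalised counts against 0 to 9.45 in the other libraries, and the part of that difference in the C2 value was not tested.

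C4A and C4B encode the 2 isotypes of C4, whose fragment C4b forms the classical convertase with C2 (chromosome 6, 31982057 to 32002681 and 32014795 to 32035418, plus strand). Their canonical transcripts in GENCODE release 44 are both 5427 bases long and differ at 13 bases, an identity of 99.8%. Of all 100-base stretches of either transcript, the length of a read here, 88.4% also occur in transcripts of another gene. The 75 bases below hold 5 of the 13 differences. They come from exon 26 of each transcript at chr6:31996037-31996111 for C4A and chr6:32028775-32028849 for C4B (GRCh38, plus strand), with the differing bases in capitals. They are shown because only reads over such bases separate the isotypes.
C4A: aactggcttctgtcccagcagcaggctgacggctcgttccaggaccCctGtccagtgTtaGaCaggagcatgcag
C4B: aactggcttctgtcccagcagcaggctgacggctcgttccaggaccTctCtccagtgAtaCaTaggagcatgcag

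For C4A, the WT libraries held 8.50, 52.2 and 10.4 normalised counts and the POLDIP2 KO libraries 11.1, 17.1 and 132.1. For C4B, the WT libraries held 39.7, 3.01 and 0 and the POLDIP2 KO libraries 0, 61.1 and 0. High and low values occurred in both lines, and libraries with much C4A had little or no C4B. C4A took 17.6%, 94.5% and 100% of the C4 reads of the WT libraries, against 100%, 21.9% and 100% for POLDIP2 KO. The share moved between these extremes within each line, and how reads were shared out between near-identical transcripts was not tested. The limma log2 fold change was 0.78 for C4A (95% confidence interval -1.73 to 3.28) and -0.46 for C4B (-5.24 to 4.31), both with an adjusted p value of 1.00. As a sum, C4A and C4B had 48.2, 55.2 and 10.4 normalised counts in WT and 11.1, 78.1 and 132.1 in POLDIP2 KO. The sum also overlapped between the lines, and its log2 fold change was 0.67 (-1.72 to 3.05).

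**Figure D2:**
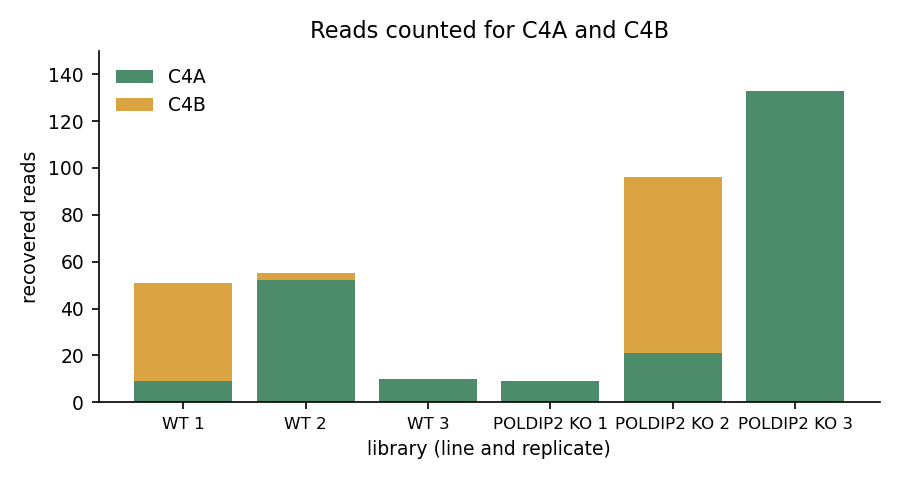
Recovered reads (vertical axis) counted for C4A in green and C4B in yellow, stacked for each of the 6 libraries. The total runs from 9 to 133 reads, and C4B is at 0 in WT replicate 3 and POLDIP2 KO replicates 1 and 3.

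CFB encodes factor B, the protease of the alternative convertase (chromosome 6, 31945650 to 31952086, plus strand). For CFB, the WT libraries held 78.4, 43.1 and 75.2 normalised counts and the POLDIP2 KO libraries 179.6, 118 and 301.9. All 3 POLDIP2 KO libraries were above the WT libraries, and they spread more widely. The mean was 65.6 ± 19.5 in WT and 199.8 ± 93.6 in POLDIP2 KO (SD, n = 3 libraries each). On the log2 scale the fold change was 1.54, with a 95% confidence interval of 0.57 to 2.50 and an adjusted p value by limma of 0.366. Within pairs, POLDIP2 KO was 2.29, 2.74 and 4.02 times as high as WT. The counts behind these values were 43 to 83 reads in WT and 145 to 304 in POLDIP2 KO.

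CFB, C2, C4A and C4B lie close together on chromosome 6, where several genes had uneven counts. Between positions 31597785 and 32335418, a span that reaches past C2 and C4B by the same distance, 11 of 35 tested genes (31.4%) were at 0 in at least 1 library, against 1.54% of the 13793 tested genes with a position. EHMT2, for example, had 118, 0 and 0 normalised counts in WT and 178, 0 and 0 in POLDIP2 KO. Of the 100-base stretches of the canonical CFB transcript, 90.5% also occur in ENSG00000244255, a gene that spans C2 and CFB, which had 10, 0 and 0 reads in WT and 0, 3 and 0 in POLDIP2 KO. Of the tested rows, 885 have no symbol, and any reads of this region counted there are outside these values, and their part in the CFB difference was not tested. The 3 nearest tested genes on each side of CFB (NEU1, EHMT2, ZBTB12, NELFE, SKIC2 and DXO) had log2 fold changes from -0.43 to 0.56 and overlapping libraries.

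The RefSeq promoter table for GRCh38.p14, with 250 bases before to 50 after each start site, held 6 of the 10 members. These are CFB, CFD, C2, C5, C1R and C1RL, and C3, C1S, C4A and C4B are the others. For CFB, whose libraries did not overlap between the lines, 3 of the 5 motifs searched on both strands had a match. The interferon-stimulated response element (GAAA, any 2 bases, GAAA) matched on the minus strand 140 bases before the start site, the gamma-activated site TTCNNNGAA matched 92 bases before, and TATAAA matched 30 bases before. These motifs occur in 3.57%, 7.66% and 11.5% of the 35116 promoters of the table. The windows of 30 bases around the matches, on the plus strand with the match in capitals, lie at chr6:31945945-31945974, chr6:31945993-31946022 and chr6:31946053-31946082. All 3 windows lie after the start of CFB in GENCODE release 44, which has transcripts that begin before the RefSeq start site.
CFB interferon-stimulated response element: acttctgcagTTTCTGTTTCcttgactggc
CFB gamma-activated site: cgcttggatgTTCCGGGAAagtgatgtggg
CFB TATA: gaacacagattgTATAAAaggctgggggct

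The kappaB motif (GGG, any 2 bases, TTTCC), present in 1.91% of the promoters, and the C/EBP motif TTNNGNAA, present in 36.8%, had no match in the CFB window. Neither of these nor the other 3 motifs matched in the windows of C2 and CFD. C5 had 1 match, to the C/EBP motif, in 1 of its entries. The gamma-activated site also matched in C1R, 86 bases before the start site of 1 of its entries, and in C1RL, 57 bases before, and the C/EBP motif matched in both. A match describes letters in a window and no binding was measured.

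CFD encodes factor D, the protease that activates factor B (chromosome 19, 859453 to 867884, plus strand). For CFD, the WT libraries held 19.8, 19.1 and 13.6 normalised counts and the POLDIP2 KO libraries 41.8, 15.5 and 15.9. Only POLDIP2 KO replicate 1 was above the WT libraries. The log2 fold change was 0.32, with a 95% confidence interval of -0.90 to 1.54 and an adjusted p value by limma of 1.00. Without POLDIP2 KO replicate 1 it was -0.13.

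C3 encodes the component on which the pathways meet (chromosome 19, 6677704 to 6730562, minus strand). For C3, the WT libraries held 1039, 1328 and 2139 normalised counts and the POLDIP2 KO libraries 5835, 7865 and 5701. The lowest POLDIP2 KO library was more than 2-fold above the highest WT library. The mean was 1502 ± 570 in WT and 6467 ± 1213 in POLDIP2 KO (SD, n = 3 libraries each). On the log2 scale the fold change was 2.16, with a standard error of 0.27 and a 95% confidence interval of 1.52 to 2.80. C3 ranked 26 of the 14678 tested genes by limma p value, with an adjusted p value of 0.0506. Its exact two-sided permutation p value was 0.1, the smallest that 3 libraries against 3 can give. Within pairs, POLDIP2 KO was 5.61, 5.92 and 2.66 times as high as WT for replicates 1, 2 and 3. GPR108 overlaps an end of the C3 locus on the same strand and had 1779, 1895 and 1596 reads in WT against 1430, 2457 and 2341 in POLDIP2 KO. Of the 100-base stretches of the canonical C3 transcript, 0% occur in transcripts of another gene, and the same holds for C1S, CFD and C5. The pair of replicates 3 had the smallest ratio for C3 and the largest for CFB and C1S.

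C5 encodes the component cut at the start of the terminal pathway (chromosome 9, 120932987 to 121075195, minus strand). For C5, the WT libraries held 266, 196 and 258 normalised counts and the POLDIP2 KO libraries 144, 292 and 279. The POLDIP2 KO libraries lay on both sides of the WT libraries. The log2 fold change was -0.06, with a 95% confidence interval of -0.79 to 0.67, so a change of up to 1.59-fold upward or to 0.576 of the WT level lay within the interval.

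**Figure D3:**
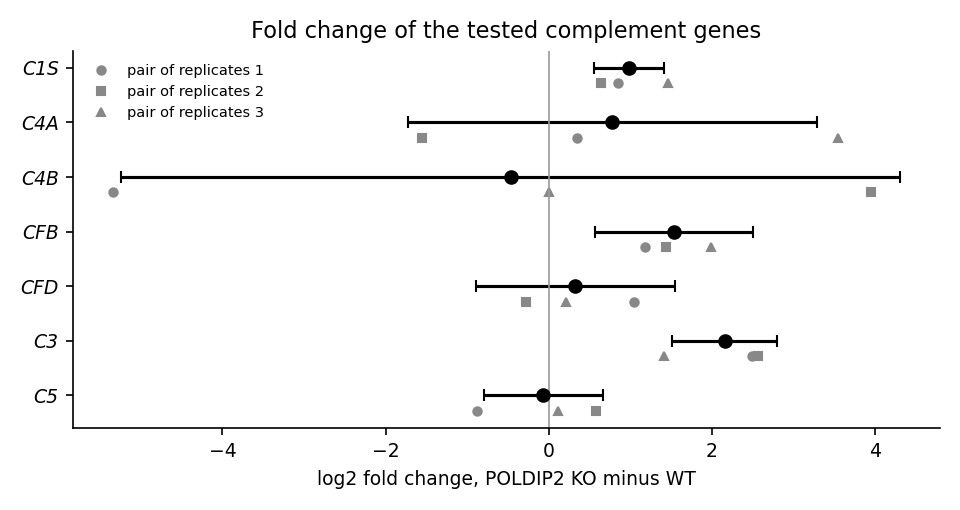
Log2 fold change of POLDIP2 KO minus WT (horizontal axis) for the 7 tested members, with black points and bars for the limma estimate and its 95% confidence interval and grey markers for the 3 pairs of same-numbered libraries. The intervals of C1S, CFB and C3 lie above 0, and those of C4A, C4B, CFD and C5 include 0.

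The calls for C3, CFB and C1S depended on the test. Run on recovered reads as a test added once the data had been seen, DESeq2 called these 3 (1.7% of all genes were called), with adjusted p values of 6.1e-11 for C3, 0.0291 for CFB and 0.00029 for C1S. By the quasi-likelihood test of edgeR, also added then, 0 of the 7 members were called (0.116% of all genes were), with adjusted p values of 0.0850 for C3, 0.378 for CFB and 0.179 for C1S. With the replicate number in the model, 0 members were called by limma (0.204% of all genes), 0 by edgeR (0.0341%) and 3 by DESeq2 (2.66%). In limma, C3 passed with a pseudocount of 5 (adjusted p value 0.0473), without the filter (0.0385) and with recentred libraries (0.0496). These were 3 of the 9 alternative limma settings that kept all libraries, and in the others its adjusted p value went up to 0.101. With 1 library left out, C3 passed in 0 of 6 limma fits (adjusted p values 0.0644 to 0.220). Leaving out each library in turn gave C3 log2 fold changes of 1.92 to 2.44, CFB 1.19 to 1.86 and C1S 0.85 to 1.13.

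Levels were compared between genes as normalised counts per kb of merged exons. In WT, C3 was highest with 129.8 ± 49.3 (SD, n = 3), followed by C1S with 119.8 ± 19.4, and their libraries overlapped. C5 with 14.2 ± 2.29, CFB with 12.3 ± 3.67 and CFD with 9.62 ± 1.88 followed, each overlapping the next. In POLDIP2 KO, C3 with 559 ± 105, C1S with 237 ± 41.5 and CFB with 37.6 ± 17.6 were in separate ranges. CFB, below C5 in WT, was above it in POLDIP2 KO, where C5 had 14.1 ± 4.86. C5, CFD (13.4 ± 8.31) and C4A (7.46 ± 9.53) overlapped in POLDIP2 KO. CFB (22.2 to 56.8) also overlapped CFD (8.51 to 23.0) there. Among all tested genes, the level of C3 per kb was at percentile 44.2 in WT and 80.7 in POLDIP2 KO, that of C1S at 42.3 and 59.6, and that of CFB at 11.4 and 22.7. The order was the same per kb of the longest transcript, but the overlaps were not: C3 (199 to 409) and C1S (141 to 196) were then apart in WT, and CFB (28.5 to 72.9) and C5 (15.8 to 32.1) overlapped in POLDIP2 KO.

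**Figure D4:**
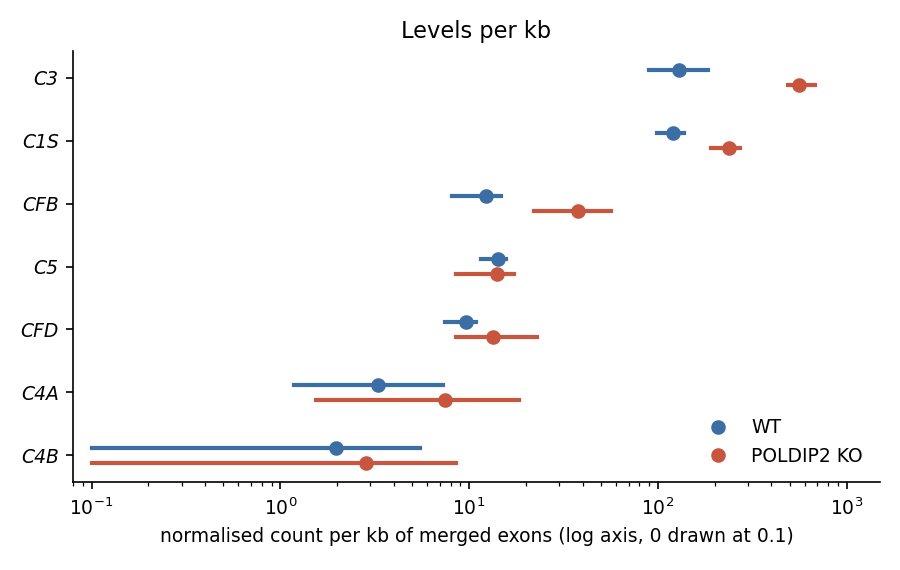
Normalised count per kb of merged exons (horizontal log axis) of 7 members, with points for the mean and lines from the lowest to the highest of 3 libraries, WT in blue and POLDIP2 KO in red. C3, C1S and CFB lie at higher levels in POLDIP2 KO, and the lines of C5, CFD, C4A and C4B overlap between the groups.

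The genes with the pattern most like C3 over the 6 libraries were found by the root mean square difference of log2 values, each gene centred on its WT mean. They were CCL2 (0.275), ENSG00000112096 (0.303), TNFAIP3 (0.322), IL7 (0.387) and CCDC3 (0.404), against a median of 1.58 over all tested genes. The selection fixes their level in POLDIP2 KO to be close to that of C3, so it is a description only. ENSG00000112096, which has no symbol in GENCODE release 44 and is SOD2 in the gene list of the study, encodes the mitochondrial superoxide dismutase and rose from 5338 ± 672 to 25119 ± 3643 normalised counts (limma adjusted p value 0.00960). CCL2, which encodes a monocyte chemoattractant, rose from 1681 ± 283 to 7543 ± 1497 normalised counts (limma adjusted p value 0.0204). TNFAIP3, which encodes an inhibitor of NF-kB signalling, was at 183 ± 44.7 in WT and 876 ± 172 in POLDIP2 KO. Limma gave TNFAIP3 an adjusted p value of 0.0340, and 0.0586 once the replicate block was added. IL7, a cytokine gene, and CCDC3 did not pass, with limma adjusted p values of 0.427 and 0.0798. The genes nearest to C1S were PDGFD (0.0999), AFF3 (0.153), ADAM22 (0.156), RIBC1 (0.157) and ASB9 (0.162), against a median of 0.767. None of these 5 had a limma adjusted p value under 0.05, and their log2 fold changes were 0.83 to 1.18.

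**Figure D5:**
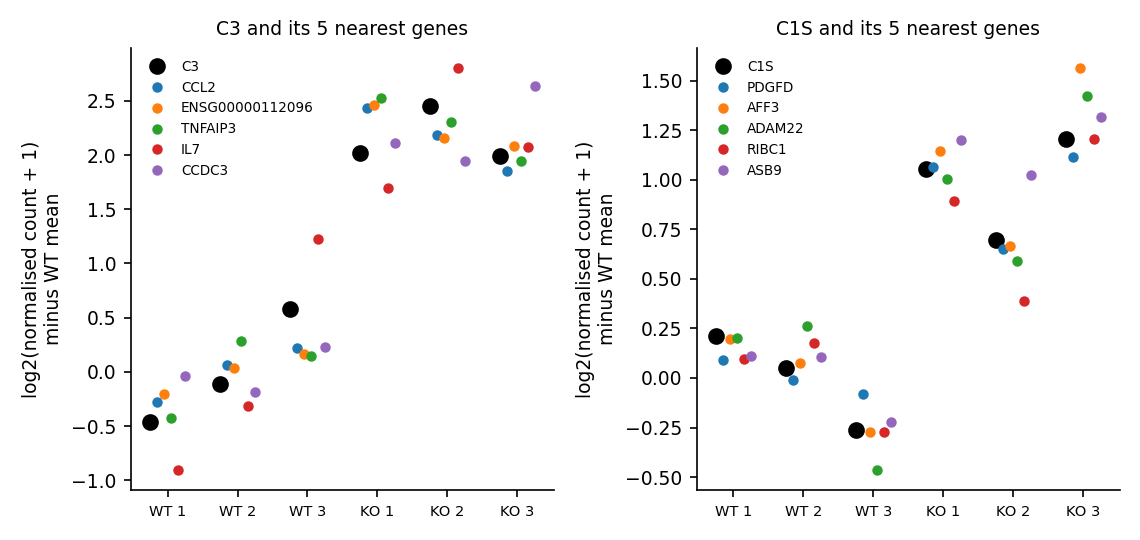
Log2(normalised count + 1) minus the WT mean (vertical axis) in each of the 6 libraries for C3 and its 5 nearest genes on the left, and for C1S and its 5 nearest genes on the right, with the large black points giving C3 or C1S. C3 and its nearest genes are about 2 units higher in POLDIP2 KO, and C1S and its nearest genes about 1 unit higher, as the selection of the nearest genes requires.

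The other complement genes examined were 41 initiators, stabilisers, terminal components, regulators and receptors, of which 16 passed the filter. By limma 0 of 16 were called, against 0.17% of all tested genes. At an unadjusted limma p value under 0.05, 2 were higher in POLDIP2 KO, against 3% of all tested genes. At that threshold 1 was lower, for which no share of all tested genes is given. The median log2 fold change was 0.14. C1QA, C1QB and C1QC, which encode the recognition part of the C1 complex, were at 0 in all libraries, as were MBL2, FCN2, C6, C8A, C8B, C4BPA, VSIG4, CSMD1 and CD93. The C1s protease gene was thus measured in libraries with no read of the C1q genes.

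CFI encodes factor I, the protease that inactivates C3b and C4b. For CFI, the WT libraries held 15.1, 20.1 and 10.4 normalised counts and the POLDIP2 KO libraries 86.1, 142 and 74.5, which did not overlap. Its log2 fold change was 2.64 (1.69 to 3.59), and limma gave it an adjusted p value of 0.0860. CD55 encodes a membrane protein that speeds the decay of the convertases. CD55 had 4107, 2876 and 3092 in WT, and 7097, 3863 and 4994 in POLDIP2 KO, which overlapped, and its log2 fold change was 0.64 (adjusted p value by limma 0.686). COLEC12, which encodes a scavenger receptor of the collectin family, had 340, 508 and 337 in WT against 164, 259 and 264 in POLDIP2 KO, a log2 fold change of -0.79 (adjusted p value by limma 0.570). SERPING1, which encodes the inhibitor of C1r and C1s and was chosen after its values were seen, had 1459, 906 and 409 in WT and 1065, 445 and 327 in POLDIP2 KO, lower in each pair but with overlapping libraries (limma adjusted p value 1.00).

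Of 13 acute phase genes, which inflammation induces in the liver and other tissues, 12 were in the table and 4 passed the filter. By limma 0 of 4 were called, against 0.17% of all tested genes. SAA1 was not analysed here, and CRP, ORM1 and ORM2 were at 0 in all libraries. PTX3, which encodes a pentraxin that binds C1q, had normalised counts of 34.0, 111 and 58.5 in WT, and of 442, 582 and 427 in POLDIP2 KO. Its log2 fold change was 2.96, and limma gave it an adjusted p value of 0.0722, which became 0.0477 when replicate numbers entered as a block. CP, which encodes the copper protein ceruloplasmin, had 1.89, 10.03 and 2.09 in WT and 9.84, 23.6 and 45.7 in POLDIP2 KO, with a log2 fold change of 2.33 and an adjusted p value by limma of 0.616.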

How the data were processed

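RNA of 3 WT and 3 POLDIP2 KO cultures of ARPE-19 was sequenced as stranded single-end reads of 100 bases. The signal in the deposited table is normalised counts: per the labels, the authors used Salmon 1.8 and DESeq2 1.34.0 on GRCh38. The annotation release is not given in the sources used here. Of the 37902 rows in the deposited table, GENCODE release 44 gave 34152 a symbol, and rows with a common symbol were summed. Columns left out were 0.

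To recover reads, the smallest value above 0 in a library was taken as 1 read, and 100% of values were whole within 0.001. In WT replicate 2 and POLDIP2 KO replicate 3 this step is close to 1, at 1.003 and 0.993. The largest distances from a whole number there were 8.5e-05 and 0.00022. Limma 3.58.1 in R 4.3.3 was run on log2(normalised count + 1), keeping genes whose mean reached 10, with a trended prior and Benjamini-Hochberg adjustment over all tested genes. Adding 1 understates fold changes of low genes. Thresholds were 0.05 for the adjusted p value and 1.5 for the fold change. Alternatives were other pseudocounts, filters and scalings, a replicate block, omission of each library, and edgeR 4.0.16 and DESeq2 1.42.0 on recovered reads. The steps were tested on simulated data.

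Same-numbered libraries had correlations of deviations from the group means of 0.315, 0.137 and 0.129 over 14678 genes, in replicate order. Other pairs had -0.259 to 0.147. WT replicate 3 with POLDIP2 KO replicate 2 was at 0.147, above the same-numbered pairs of replicates 2 and 3. Only the first same-numbered pair thus stood above all other pairs. The numbers were taken as pairing the samples, which the correlations do not show for replicates 2 and 3. The labels call the samples biological replicates but do not say how cultures were separated. Named genes are the members, listed complement and acute phase genes past an unadjusted p value of 0.05 or not measured, the 3 nearest tested genes on each side of C1S and CFB, POLDIP2, and the 5 genes nearest in pattern to C3 and to C1S. The members and lists were chosen with earlier results of these data known. Sequences are from GENCODE release 44 and RefSeq. Figures were made with matplotlib 3.10.9.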

Additional observations from a re-analysis of the deposited data

How the results depend on the processing

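No member was called by limma in the main fit, against 0.17% of all tested genes. Of the complement members, 1 (C3) was called with a pseudocount of 5, without the filter and with recentred libraries. C3 was not called in the other limma settings, nor with any 1 library left out. No share of all genes called is given for these limma settings. DESeq2 called 3 members (C3, CFB and C1S) with the replicate block (2.66% of all genes) and without it (1.7%). Of the other complement and acute phase genes, 0 were called in the main fit and 1 (PTX3) by limma with the replicate block (0.204% of all genes). DESeq2 called 2 (CFI and PTX3) without the block and 3 (CFI, CD55 and PTX3) with it, against the same shares of all genes as above. Among the other genes named, the replicate block also ended the limma call of TNFAIP3 and added COL1A1. With it, the adjusted p values were 0.0588 for C3, 0.0993 for CFB and 0.125 for C1S. EdgeR called 0 of both groups with the block (0.0341% of all genes) and without it (0.116%). The cause of the difference between tests was not tested. Leaving out 1 library at a time gave log2 fold changes of -0.13 to 0.56 for CFD, -0.25 to 0.26 for C5, -0.28 to 1.56 for C4A and -1.69 to 0.98 for C4B. Without POLDIP2 KO replicate 2, C4B did not pass the filter and was not fitted. C4B was 0.54 by edgeR, 0.52 by DESeq2 and 0.0021 by edgeR with the replicate block. The order of levels per kb held 16 of 16 places with the longest transcript and 12 to 16 with 1 library left out. Low counts limit C2, C4A, C4B and CFD, at 0 to 133 reads in a library.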
